A study of Drosophila melanogaster with 4 samples.

Results

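Stretches of the Drosophila melanogaster genome in which no RNA polymerase II region was called were charted in CME-W1-Cl.8+ cells, together with the regions at their borders. A stretch is a run of at least 100 kb on 2L, 2R, 3L, 3R, X or chromosome 4 that holds no enriched region in any of the 3 deposited lists. By this rule 211 stretches were found among 5317 gaps of any length between regions on these 6 arms. They were chosen by the places of the regions in all 3 lists, so their number, length and place, and the width and score of their borders, are given as a description with no test.

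The 3 lists came from chromatin immunoprecipitation and sequencing (ChIP-seq). Each of the 2 ChIP replicates has a list of its own. The remaining one, called the series list here, was deposited for the whole series under the name of a replicate set. The cells, known as Clone 8, are a male line from the dorsal mesothoracic (wing) disc of the third larval instar, and all samples share this line with no treatment named. They were fixed with formaldehyde, and the antibody, a mouse monoclonal, binds the heptad repeat YSPTSPS of the largest polymerase subunit. The study also has 2 input DNA libraries, whose values were not analysed here. Nothing in the labels states that the replicates were separate cultures, so a standard deviation over the 2 of them may be technical. On the 6 arms replicate 1 had 5035 regions, replicate 2 had 4953 and the series list had 5338. Each region carries a score, the authors' own value, read here as a log2 ratio. What the ratio sets against what is not stated in the sources used. A low score can stem from few cells with polymerase at a site or from little of it in each cell, which cannot be told apart. Without read counts in the lists, sequencing depth is unknown.

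RNA polymerase II transcribes all protein-coding genes. Its carboxy-terminal domain is phosphorylated as the enzyme starts and elongates, and an antibody against the repeat can follow polymerase both at promoters and within genes. In fly cells, genes used in every tissue tend to lie close together, while many genes of development sit in long intervals with few neighbours and are silent outside their own tissue. A long interval without polymerase may therefore hold no gene, silent genes, or repeats in which short reads cannot be placed. The region lists do not tell these apart, and no gene annotation or genome on the build of the lists was used here, so neither genes nor sequences of the stretches are given.

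Together the 211 stretches made up 32.7 Mb, 27.2% of the 120 Mb of the 6 arms. They were 3.97% of all gaps between regions but held 33.4% of the sequence outside regions. The typical gap was short, with a median of 5.07 kb over all gaps. Gaps of 1 to 10 kb numbered 2372 and added up to 9.56 Mb, less than the stretches, while gaps of 50 to 100 kb numbered 341 and added up to 23.4 Mb.

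The median stretch was 136 kb long, with the 25th percentile at 114 kb and the 75th at 183 kb. There were 74 stretches of 100 to 125 kb, 52 of 125 to 150 kb and 49 of 150 to 200 kb. A further 36 reached 200 kb, of which 7 reached 300 kb. Lengths therefore thinned out steadily above the threshold. The 3 shortest members measured 100009 bp on X, 100354 bp on 3L and 100442 bp on 2L. The 3 longest gaps that failed the rule measured 99490 bp on X, and 99134 and 98924 bp on 2R.

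**Figure D1:**
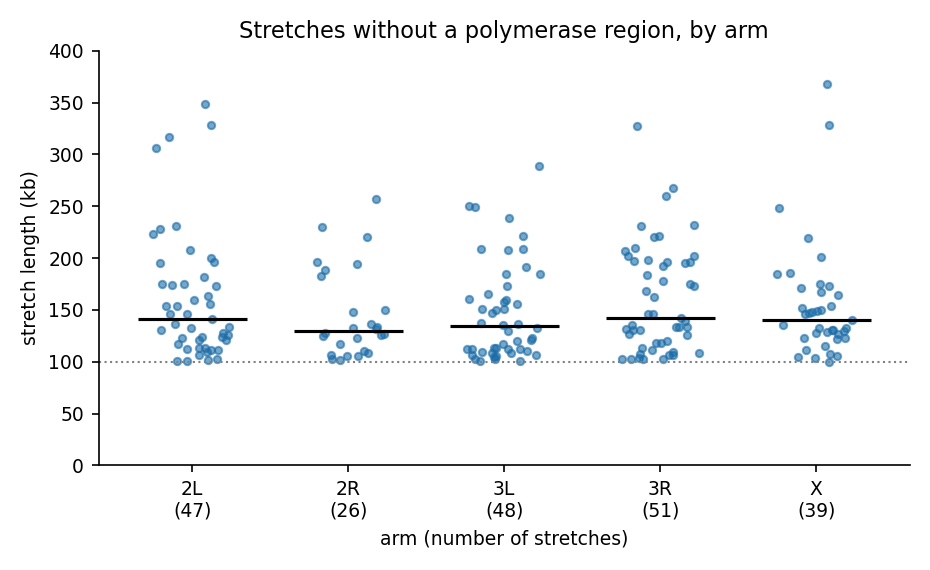
Length in kb of each of the 211 stretches by chromosome arm; each point is a stretch, the bars are medians and the dotted line is the threshold of 100 kb. Medians lie between 130 kb on 2R and 142 kb on 3R, and the longest stretch, 367 kb, is on X.

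The arms differed more in how many stretches they held than in how long these were. The rule cuts lengths off at 100 kb, so median lengths could differ less freely than counts. 3R had 51, 3L 48, 2L 47, X 39 and 2R 26, and chromosome 4 had none. Per 10 Mb this came to 20.4 on 2L, 19.6 on 3L, 18.3 on 3R, 17.4 on X and 12.3 on 2R. Median lengths were 141 kb on 2L, 130 kb on 2R, 134 kb on 3L, 142 kb on 3R and 141 kb on X. Stretches of 200 kb or more numbered 11 on 3R, 9 on 2L, 8 on 3L, 5 on X and 3 on 2R. The single male X had 27.0% of its sequence in stretches, against 27.6% of the large autosome arms together. On chromosome 4, a short chromosome rich in repeats, the longest gap was 80.7 kb. Its sequence measured 1.35 Mb, in which few stretches would fall at the rates of the long arms, so their absence there says little.

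Per Mb of sequence outside the stretches, the 5 long arms were more alike in the number of regions. Stretches hold no region by the rule, so leaving them out raises each count, most on arms with the largest share in stretches. The change is thus another view of the places of the stretches, not a separate result. Over whole arms the replicates had a mean of 48.0 ± 0.2 regions per Mb on 2R and 37.5 ± 0.9 on 2L (SD, n = 2), the highest and the lowest of the 5 long arms, a ratio of 1.28. In the sequence left after removal of the stretches the counts were 58.5 ± 0.3 per Mb on 2R and 55.8 ± 1.4 on 2L. The extremes were then 59.8 ± 2.2 on X and 54.2 ± 0.7 on 3L, a ratio of 1.10. The covered share of that sequence still differed. It was highest on X, at 24.6% ± 0.3, and lowest on 3L, a ratio of 1.23. Over whole arms the extremes were X and 2L, at 17.9% ± 0.3 and 13.8% ± 0.5, a ratio of 1.30.

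Stretches were spread along the arms but unevenly. Each of the 5 long arms was divided into 10 bins of equal length from the telomere side to the centromere side of the assembled sequence. Of these 50 bins, 5 lay over 50% in stretches. They were the last bin of 3L and of X, at 59.7% each, the seventh and eighth bins of 2L, at 56.7% and 51.1%, and the third bin of 2R, at 52.5%. A further 5 bins lay under 10% in stretches, 4 of them on 2R and the other the first bin of X, at 6.57%. The last bin at the centromere side held 29.6% to 59.7%, with a median over arms of 39.8%, and the first bin at the telomere side held 6.57% to 36.4%, with a median of 16.3%. Assembled sequence next to a centromere is known to be rich in repeats, and the part that unplaceable reads have in these shares was not tested.

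**Figure D2:**
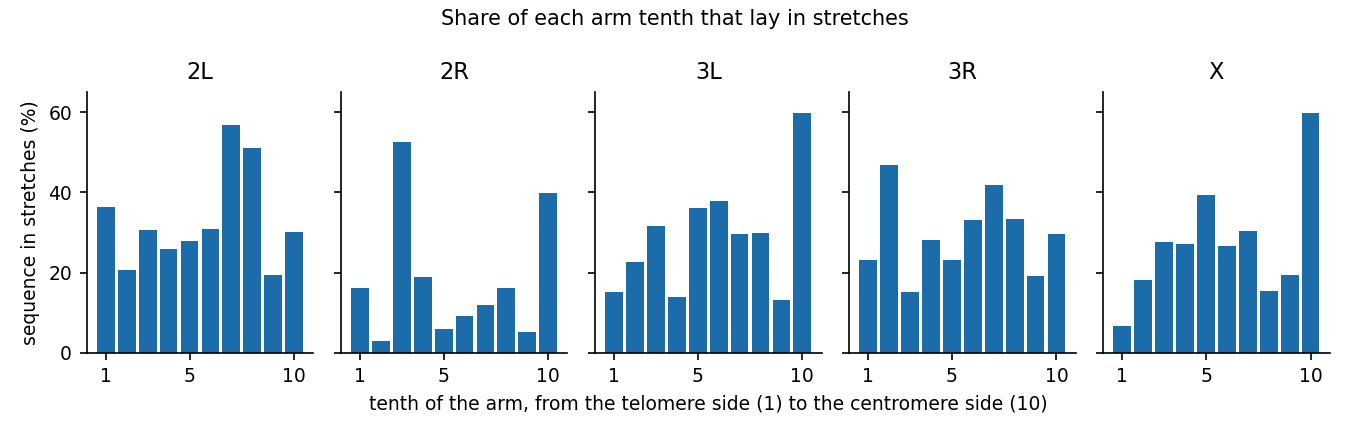
Share of each of 10 equal bins that lay in stretches, for the 5 long arms, with bin 1 at the telomere side and bin 10 at the centromere side. The bin at the centromere side is the highest of its arm on 3L and X, and 4 of the bins of 2R lie under 10%.

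No stretch reached an end of an assembled arm. At the telomere side the outermost stretch began between 6.73 kb (2R) and 896 kb (3L) from the end. At the centromere side the distance was between 9.08 kb (X) and 779 kb (3R). On 3L the distance at the centromere side was 14.0 kb. Sequence with at least 1 region thus stood between each end and the first stretch.

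Between neighbouring stretches on an arm lay 206 spans with regions, with a median length of 261 kb. The 25th percentile was 84.8 kb and the 75th 547 kb. Spans of 1 Mb or more numbered 18, 7 of them on 2R, 3 each on 3L, 3R and X, and 2 on 2L. The longest span without a stretch was 2600 kb on X (322788 to 2922916, FlyBase r5, as are all positions), with 150 regions in replicate 1 and 146 in replicate 2, and 147 in the series list. It was followed by 2141 kb on 2R (16826761 to 18967463) and 2047 kb on 2R (7464696 to 9511718).

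Part of the stretches stood close to another. Of the 38 spans under 50 kb, 21 held a single block of overlapping regions. The nearest other stretch lay at a median of 114 kb, and 71 stretches (33.6%) had one within 50 kb. These 71 formed 33 chains, 28 of them pairs and none of more than 3 stretches, and the other 140 stood apart. The longest chain was on 3L next to the centromere side (23745139 to 24529519). It ran over 784 kb, of which 93.9% was empty, with 2 regions in each replicate and 4 in the series list. Another of 3 stretches on 3R (23790213 to 24343787) ran over 554 kb, 94.6% of it empty, and had 3 regions in replicate 1, 2 in replicate 2 and likewise 2 in the series list.

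In 21 spans a single block of overlapping regions parted 2 stretches. The blocks had a median length of 2.27 kb and reached 28.7 kb. In 16 of the 21 the block held a region of all 3 lists. A block on 2L (14688161 to 14690429) stood between stretches of 196 kb and 306 kb, and its region scored 2.05 in replicate 1 and 2.01 in replicate 2, with 2.02 in the series list. On 2L again (17259667 to 17261739), between stretches of 348 kb and 121 kb, the scores were lower, at 0.49 in replicate 1 and 0.73 in replicate 2. A block on 3L (18390406 to 18392602) between 209 kb and 221 kb scored 1.14 in replicate 1 and 1.79 in replicate 2. Isolated polymerase regions within otherwise empty sequence thus ranged from weak to well above the median score of the lists, which was 1.12 in replicate 1 and 1.14 in replicate 2.

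In 4 spans, the shortest of all, the block was a region of the series list alone. They measured 1001 bp on 3R (23999604 to 24000604), 1053 bp on 3L (24239650 to 24240702), 1137 bp on 3L (23544528 to 23545664) and 1427 bp on 2R (19090560 to 19091986). Their scores in the series list were 3.15, 2.00, 0.46 and 0.16. The first had the least width found in the series list, and 6 regions on the 6 arms, all of 1001 bp, carried this same score. Without read counts, whether such a score rests on few reads was not tested. Neither replicate held a region at any of these 4 places. Without them the stretches on both sides would join to 352 kb on 3R, 498 kb and 342 kb on 3L, and 274 kb on 2R.

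The longest stretch of each long arm was bordered by regions of many kinds. On X (20530533 to 20898011, 367 kb), the left border scored 1.04 in replicate 1 and 1.17 in replicate 2, and the right border 2.72 and 3.17. On 2L (16911347 to 17259666, 348 kb) both borders were weak, with 0.85 and 0.71 on the left and 0.49 and 0.73 on the right. On 3R (12479102 to 12806789, 328 kb), the left border was a region of 7268 bp in replicate 1 and 6632 bp in replicate 2 that scored 2.08 and 2.18, while the right border was 2063 and 2052 bp wide and scored 0.70 and 0.71. On 2R (720459 to 977135, 257 kb) the right border scored 1.04 and 1.10. Its left edge was set by a 1083 bp region of the series list alone with a score of 0.35, and the first replicate regions, with 1.78 and 1.74, lay 1949 and 1881 bp farther out. The left border of the longest stretch on 3L (24240703 to 24529519, 289 kb) was the 1053 bp region of the series list named above, with the first replicate regions 210 kb farther out, and its right border scored 1.04 and 1.28. The stretches next in length, on X (14144847 to 14473656, 329 kb) and on 2L (4466163 to 4794078, 328 kb), had border scores of 0.40 to 1.25. On the right of the one on 2L the replicates did not share a border: the region of replicate 1, with 0.40, abutted the stretch, and the first of replicate 2, with 1.07, lay 34715 bp farther out. Strong and weak borders thus occurred on both sides of a single stretch.

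Most edges were placed alike by the replicates. Of the 422 edges, 341 (80.8%) were formed by a block that held a region of all 3 lists. A further 18 were formed by replicate 1 with the series list, 18 by replicate 2 with the series list, 38 by the series list alone, 4 by replicate 1 alone and 3 by replicate 2 alone. At 377 edges the first regions of both replicates overlapped, and their inner ends lay a median of 51 bp apart, with 350 (92.8%) within 500 bp. From the edge to the first region the median distance was 21.5 bp in replicate 1 and 55 bp in replicate 2, with 0 bp for the series list.

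Where only part of the lists formed the edge, the region there was mostly narrow and low in score. In the series list, edge regions also held by both replicates had medians of 2711 bp in width and 1.14 in score. Those shared with replicate 1 alone had 1770 bp and 0.20, those shared with replicate 2 alone 1987 bp and 0.36, and those of the series list alone 1263 bp and 0.47. The last set, 34 regions, also held 5 with scores of 2 or more. The 7 edge regions of a single replicate scored 0.10 to 0.40 and were 1321 to 1865 bp wide, and 3 of the 7 overlapped a region that the series list named as depleted. Regions held by part of the lists took similar shares at the borders and elsewhere. In the series list 35 of 401 border regions (8.73%) overlapped neither replicate, against 496 of 4937 other regions (10.0%). In replicate 1, 371 of 396 border regions (93.7%) overlapped a region of replicate 2, against 4266 of 4639 other regions (92.0%). In replicate 2 the shares were 94.7% of 397 border regions and 94.2% of 4556 other regions.

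The first region beyond each edge in a list was taken as its border region, and all remaining regions of the 6 arms as the other regions. Not every border region lay at the edge itself. Within 500 bp of it lay 329 of 396 in replicate 1 and 322 of 397 in replicate 2. The longest distance was 290 kb in both replicates. Border regions were narrower in the middle of their range. Their median width was 2428 bp in replicate 1 and 2303 bp in replicate 2, against 2633 and 2604.5 bp for other regions. The series list had medians of 2367 bp at the borders and 2667 bp elsewhere. The difference of border minus other was -253 ± 68 bp over the replicates (SD, n = 2). At the 75th percentile border regions measured 3581 ± 13 bp and other regions 4240 ± 15 bp, a difference of -659 ± 28 bp. At the 25th percentile the widths were 2110.5 ± 3.5 and 2125 ± 2 bp. At the 5th percentile border regions were the wider ones, at 1665 ± 50 against 1535 ± 12 bp. At the 95th percentile the replicates differed in direction, with border minus other at -1273 bp in replicate 1 and 333 bp in replicate 2. Regions of 2 to 5 kb made up 70.5% ± 0.1 of border regions and 64.2% ± 0.9 of other regions, and those of 5 kb or more 13.2% ± 0.2 and 19.0% ± 0.05. Regions of 10 kb or more were rare in both, at 4.03% ± 0.35 and 4.51% ± 0.30.

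Scores of border regions lay close to those of the rest. The median border score was 1.14 in replicate 1 and 1.16 in replicate 2, against 1.12 and 1.14 for other regions. In the series list these medians were 1.02 and 0.96. Border minus other was 0.021 ± 0.004 over the replicates (SD, n = 2), a small step beside the quartiles of border regions at 0.73 ± 0.01 and 1.68 ± 0.08. At the 5th percentile the border score was 0.32 ± 0.06 and the other score 0.36 ± 0.04, and at the 95th percentile they were 2.43 ± 0.15 and 2.48 ± 0.10. Scores under 0.5 were found in 12.6% ± 1.0 of border regions and 13.5% ± 1.7 of other regions, and scores of 2 or more in 14.4% ± 3.2 and 14.8% ± 2.2. The direction of the small median difference depended on settings: it was -0.050 when only stretches of 200 kb or more were used, -0.0043 when regions scoring under 0.5 were left out of both the definition and the comparison, and -0.0023 when regions within 500 bp were joined.

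**Figure D3:**
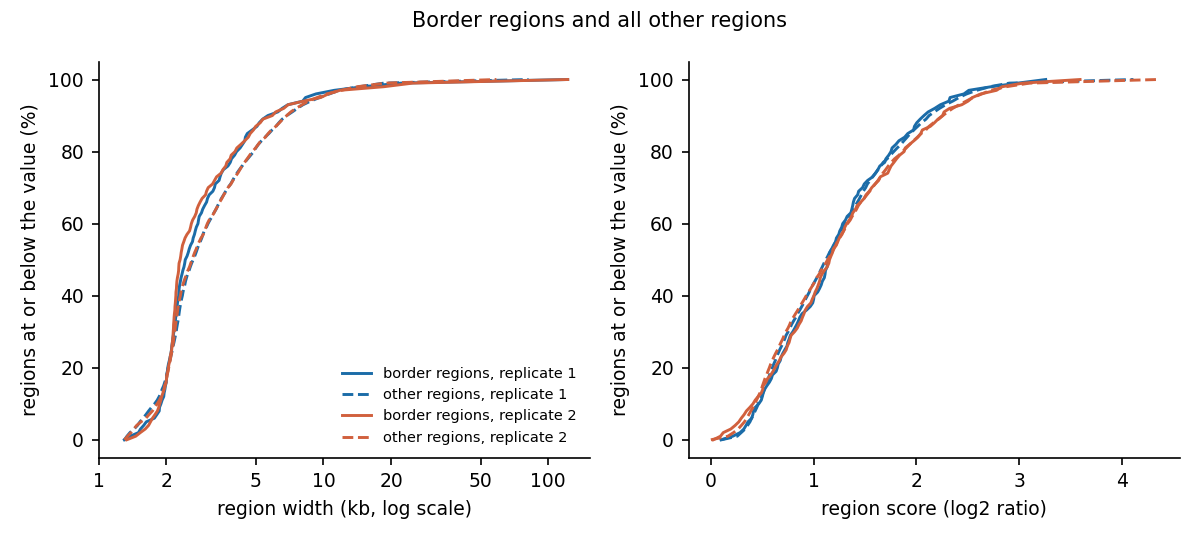
Width in kb (left, log scale) and score as a log2 ratio (right) of border regions (solid) and other regions (dashed) in each replicate, as the percentage of regions at or below each value. The width curves are apart in the middle, with medians of 2428 and 2303 bp at the borders against 2633 and 2604.5 bp elsewhere. They cross toward both ends, while the score curves run close together.

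Taken by width, the scores still ran alike. Border regions under 2 kb had a median score of 0.38 ± 0.05 and other regions of that width 0.42 ± 0.04. From 2 to 5 kb the medians were 1.21 ± 0.01 and 1.17 ± 0.01, and at 5 kb or more they were 1.60 ± 0.02 and 1.60 ± 0.02 (SD, n = 2 throughout). Border regions had the lower median width on all 5 long arms in both replicates, by a mean of 320 bp on 2L, 284 bp on 2R, 201 bp on 3L, 207 bp on 3R and 106.5 bp on X. On X the replicates were apart, at -9 bp and -204 bp, and the series list had the opposite direction, at 245 bp. The median score at the border was the higher one on 4 of the 5 arms in replicate 1 and on 3 of 5 in replicate 2.

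Among border regions held by all 3 lists, the 5 with the highest mean score lay on 2L, 2R, 3L and X. The highest, on 2L (900290 to 902769 in replicate 1), stood at the left of a 174 kb stretch and scored 3.26 in replicate 1 and 3.59 in replicate 2. It ranked 21st and 14th among all regions on the 6 arms of those lists. The next were on 2R (13151853 to 13154227), with 3.02 and 3.09, on 2L (17382905 to 17385959), with 2.98 and 3.10, and on 3L (13220674 to 13222997), with 3.00 and 3.03. The fifth was the right border of the longest stretch on X, already given. All 5 were compact in the replicates, from 2324 to 3055 bp in replicate 1. In the series list the fifth was wider, at 5961 bp, with a score of 2.29. The lowest of the matched border regions, on 3L (20613972 to 20615937), scored 0.34 in replicate 1 and 0.03 in replicate 2.

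The widest border regions had moderate scores. The widest of all spanned 122032 bp in replicate 1 and 122039 bp in replicate 2, on 3L (22280112 to 22402143), and ended against a 147 kb stretch, with scores of 1.49 and 1.42. A region of 41449 and 41575 bp on 3R (2718245 to 2759693) began where a 231 kb stretch ended, and scored 1.62 and 1.58. It was followed by a region on X (8765924 to 8796955) of 31032 and 27411 bp with 1.48 and 1.63, and by one on 3R (24142603 to 24163280) of 20678 and 24919 bp with 1.99 and 2.01. The fifth, on 3L (14043483 to 14066214), measured 22732 and 22764 bp and scored 1.70 and 1.51. Each of these 5 borders a stretch by the rule, and its distance from the edge was at most 155 bp in both replicates.

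Stretch length and border score showed little relation. Across the 169 stretches whose first regions overlapped between replicates on both sides, Spearman's rho of length with the mean border score was -0.06 and with the mean border width 0.16. The scores of the left and right borders had a rho of -0.12 and their widths -0.17. These are descriptions across stretches of the same 2 libraries, in which neighbouring stretches can share a border. By length class, the median border score was 1.13 ± 0.02 at 100 to 125 kb, 1.23 ± 0.02 at 125 to 150 kb, 1.16 ± 0.02 at 150 to 200 kb and 1.08 ± 0.02 at 200 kb or more (SD, n = 2).

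Regions were next ordered by the larger of the gaps at their sides, within each list. Median width was 3142.5 ± 86 bp where that gap was under 1 kb, 2752 ± 4 bp at 1 to 5 kb and 2600 ± 8 bp at 10 to 25 kb. It was 2359 ± 25 bp at 50 to 100 kb and 2365 ± 68 bp at 100 kb or more (SD, n = 2). Regions of 5 kb or more made up 25.1% ± 1.8 in the first of these classes and 12.9% ± 0.2 in the last. The last 2 of these widths differed by less than the spread between replicates. Median score went up with the gap from 0.89 under 1 kb to 1.24 ± 0.001 at 25 to 50 kb, and was 1.14 ± 0.04 at 50 to 100 kb and 1.16 ± 0.02 at 100 kb or more.

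**Figure D4:**
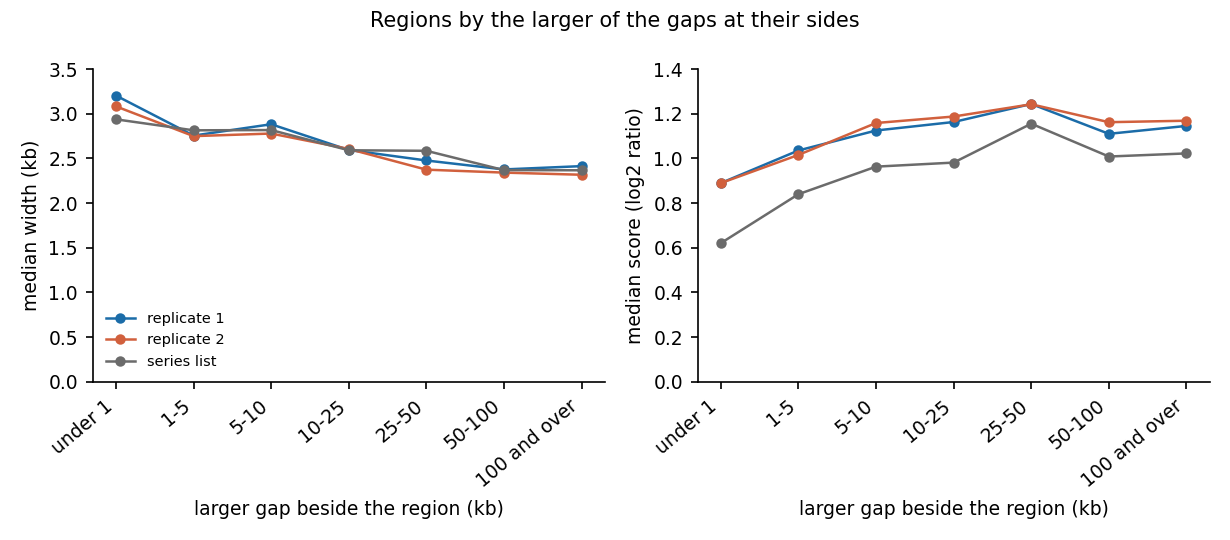
Median width in kb (left) and median score as a log2 ratio (right) of regions on the 6 arms, by the larger of the gaps at their sides, in each list. Width is lowest in the classes of 50 to 100 kb and of 100 kb or more, and score is highest at 25 to 50 kb in all 3 lists.

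Beyond the border the sequence reached its usual cover within a short distance. In the first 1 kb from an edge 77.2% ± 2.1 of the sequence was in regions, and from 1 to 2 kb 84.0% ± 0.5. The rule requires a region at the edge in at least 1 list, and most border regions were at least 2 kb wide. Both values thus largely follow from the rule, as does part of the next. The share in regions was 39.5% ± 0.6 from 2 to 5 kb, 27.1% ± 0.2 from 5 to 10 kb and 22.7% ± 0.7 from 10 to 20 kb. It was lowest from 50 to 100 kb, at 19.1% ± 0.5, and 23.2% ± 0.03 at 500 kb or more, against 21.8% ± 0.4 over all sequence of the 5 long arms outside stretches (SD, n = 2). From 10 kb outward all classes thus lay between 19.1% and 23.2%.

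**Figure D5:**
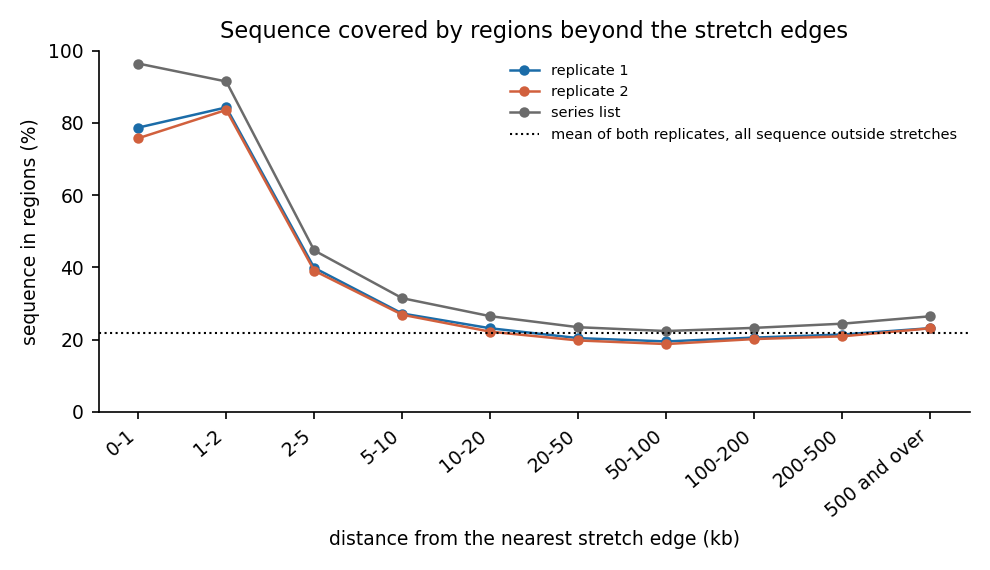
Share of sequence in regions by distance in kb from the nearest stretch edge, for the 3 lists; the dotted line is the mean of both replicates over all sequence outside stretches, 21.8%. Beyond 10 kb the curves are nearly level, and the replicates lie between 18.8% and 23.2%.

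By order from the nearest stretch, median width was 2366 ± 88 bp for the first region, 2550 ± 123 bp for the second, 2551 ± 104 bp for the third, 2498 ± 85 bp for the fourth, 2517 ± 66 bp for the fifth and 2655.5 ± 40 bp from the sixth on. Median scores in the same order were 1.15 ± 0.01, 1.12 ± 0.03, 1.12 ± 0.01, 1.13 ± 0.02, 1.10 ± 0.04 and 1.14 ± 0.02 (SD, n = 2).

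The stretches of one replicate were read in the other, which had no part in defining them. Replicate 1 alone gave 223 stretches, 30.0% of the arms, and replicate 2 covered 0.24% of their sequence, against 22.4% of the rest. Replicate 2 alone gave 227 stretches, 30.4% of the arms, and replicate 1 covered 0.30% of these, against 23.0% of the rest. Of the stretches of replicate 1, 91 (40.8%) had no base in a region of replicate 2, and 35 (15.4%) in the reverse direction. By this count a stretch is overlapped even where a border region of the other replicate reaches a few bases past its edge. How many of the overlaps were of this kind was not counted. Wholly inside the stretches of replicate 1 lay 31 regions of replicate 2, or 0.86 per Mb against 58.4 per Mb outside. In the reverse direction there were 42, or 1.15 per Mb against 59.6 per Mb. These regions had median widths of 1865 and 1807.5 bp and median scores of 0.51 and 0.45, and their highest scores were 2.01 and 2.23.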

How the data were processed

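Region lists were used as deposited. The submitters' processing notes name Bowtie 0.12.7 as the aligner, and positions refer to FlyBase r5, per the file headers. Region caller, thresholds and the use of the inputs: not given in the sources used here. The deposited score of each region is read as a log2 value: scores that recur were apart by the log2 of a ratio of integers no larger than 40 (tolerance 1e-07) in 546 of 13366 pairs in replicate 1, 378 of 4851 in replicate 2 and 433 of 5356 in the series list. Natural or base 10 logarithms gave at most 6 per list. Its zero point is not fixed by this.

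Regions not named as depletion were merged over the lists, and gaps of 100 kb or more on the 6 arms were kept. Each stretch has as borders the first region of each list beyond its edges. Replicate values are medians or shares per list, given as mean ± SD of 2 replicates. One series list region on chromosome 4 ends 595 bases past the stated arm length. The members, the named items (5 longest stretches and the longest per arm, 5 highest and 5 widest borders, extreme spans) and the comparisons were chosen with earlier results of these data known. Some of the single blocks between 2 stretches were named as examples outside these rules. No test was made, since the rule uses all 3 lists and the 2 replicates form 1 group. The gap finder was tested on simulated data. Python 3.11.15, numpy 2.4.6 and pandas 2.3.3 were used.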

Additional observations from a re-analysis of the deposited data

Results flagged for a closer look

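The series list named 17 regions as depleted, which no comparison used. None of the 17 lay inside a stretch. A depleted region that overlaps a region named as enriched in a replicate cannot lie inside a stretch by the rule. At least 3 of the 17 did overlap one, so the 27.2% of the 6 arms in stretches is no reference for this count. On 2R, 2 of the 17 overlapped the edge of a stretch by 6 and 8 bp. Both lay on a region that replicate 1 alone named as enriched and that formed this edge, with scores of 0.14 and 0.10 in replicate 1. The scores of the 17 ran from -0.09 to -0.0024 and their widths from 1569 to 1865 bp. Apart from these few bases, the stretches held no region of either name.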

How the results depend on the processing

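Of 47 alternative values over 5 results, 27 moved by less than the spread of the replicates or, for counts, by less than 1.5 times. For each of the 5 results, the 27 include an alternative that left out stretches at arm ends. It could not move, since no stretch reached an arm end. The number of stretches was 212 to 237 under other choices of lists or when only regions scoring 0.5 or more broke a stretch, and 552 with a least length of 50 kb and 36 with 200 kb. Their share of the arms was 30.0% to 30.4% without either replicate (1 replicate list alone), 29.0% with both replicate lists but no series list, 31.7% with this score limit, 46.6% at 50 kb and 7.40% at 200 kb. The share with a neighbour within 50 kb was 31.4% to 34.8% without either replicate, 63.2% at 50 kb, 13.9% at 200 kb and 38.0% with the score limit. Border minus other median width kept its sign in all alternatives and was -226.5 to -287.5 bp without either replicate, -178.5 bp with stretches of the series list alone and -327 bp with regions within 500 bp joined. Border minus other median score was 0.026 to 0.033 without either replicate, 0.033 with the series list alone and 0.012 when border regions had to lie within 500 bp of the edge, an alternative chosen after seeing the data. It turned to -0.050 at 200 kb, -0.0043 with the score limit and -0.0023 with regions joined. For all of these the cause was not tested. With depth unknown, an empty stretch cannot be told from one too thinly read to be called. No paired analysis was possible because both ChIP replicates belong to 1 group and input values were not used.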
